A study of Mus musculus with 6 samples.

Results

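The insulin and IGF1 signalling core comprises 10 genes, namely the ligand gene Igf1, the receptor genes Igf1r and Insr, the adaptor genes Irs1 and Irs2, the phosphoinositide 3-kinase subunit gene Pik3r1, the kinase genes Akt1 and Akt2, the transcription factor gene Foxo1 and the glucose transporter gene Slc2a4. Its members were all probe sets whose platform annotation named 1 of these genes and no other, which gave 31 of the 45101 probe sets of the array and 10 of 18193 genes named in this way. The rule uses no measured value, although the genes were listed with earlier results of these data known. The study compared lungs of wild type mice, 3 fed a high fat diet and 3 a control diet, by hybridising the RNA of each mouse to its own Affymetrix array. The strain, sex and age of the mice, the diets' composition and their duration are not stated in the sources available for this account, and no agent, transgene or deletion is named for either group. Markers of alveolar epithelium were bright on all 6 arrays, and 10 of them summed to signals of 209150, 220240 and 233330 in high fat mice and 161200, 238090 and 197560 in control mice.

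Insulin and IGF1 bind related receptor tyrosine kinases, which phosphorylate the IRS adaptor proteins. IRS proteins recruit phosphoinositide 3-kinase, and its lipid product activates AKT kinases. AKT phosphorylates FOXO transcription factors, which keeps them out of the nucleus, and in fat and muscle it moves the transporter GLUT4, the product of Slc2a4, to the cell surface. Much of this signalling is set by phosphorylation, which an RNA measurement does not show. In lung, IGF1 is made largely by mesenchymal cells and macrophages and acts on epithelium, endothelium and fibroblasts.

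The RefSeq promoters (build GRCm38.p6, 250 bases before to 50 after the start) of 4 members are shown because the brightest probe set of each had a higher signal in every high fat mouse than in any control mouse. The first listed start of each gene is used. Capitals mark exact matches, on either strand, to the FOXO motif GTAAACA, the GC box GGGCGG or the E-box CACGTG.
Akt2 promoter, chr7:27591302-27591601, plus strand: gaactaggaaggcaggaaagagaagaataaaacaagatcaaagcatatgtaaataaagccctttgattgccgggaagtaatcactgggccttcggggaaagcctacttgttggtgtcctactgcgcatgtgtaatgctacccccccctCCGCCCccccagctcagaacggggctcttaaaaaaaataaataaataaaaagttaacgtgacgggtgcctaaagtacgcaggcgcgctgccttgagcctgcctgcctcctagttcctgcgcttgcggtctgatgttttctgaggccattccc
Akt1 promoter, chr12:112674835-112675134, minus strand: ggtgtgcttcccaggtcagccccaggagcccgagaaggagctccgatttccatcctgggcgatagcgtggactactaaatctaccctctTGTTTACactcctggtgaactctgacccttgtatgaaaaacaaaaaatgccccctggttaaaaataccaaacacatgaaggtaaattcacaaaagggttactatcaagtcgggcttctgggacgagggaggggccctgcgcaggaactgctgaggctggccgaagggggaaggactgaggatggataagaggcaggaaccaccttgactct
Irs2 promoter, chr8:11008880-11009179, minus strand: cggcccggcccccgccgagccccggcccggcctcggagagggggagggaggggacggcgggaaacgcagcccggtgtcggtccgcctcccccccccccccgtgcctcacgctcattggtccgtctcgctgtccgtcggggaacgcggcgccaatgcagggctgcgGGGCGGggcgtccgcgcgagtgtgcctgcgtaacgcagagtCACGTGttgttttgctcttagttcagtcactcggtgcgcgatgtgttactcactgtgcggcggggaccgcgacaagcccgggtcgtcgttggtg
Igf1r promoter, chr7:67952007-67952306, plus strand: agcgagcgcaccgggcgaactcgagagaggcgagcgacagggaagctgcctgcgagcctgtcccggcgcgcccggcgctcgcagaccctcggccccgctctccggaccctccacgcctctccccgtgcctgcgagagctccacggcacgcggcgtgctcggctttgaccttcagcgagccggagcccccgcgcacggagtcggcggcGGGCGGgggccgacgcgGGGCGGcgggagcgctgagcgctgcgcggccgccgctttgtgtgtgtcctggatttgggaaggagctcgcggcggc

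Promoter entries were found for 8 of the 10 genes, 13 entries in all, and those of Insr and Slc2a4 were not used here. The FOXO motif stood in 1 of the 13 entries, that of Akt1 shown above, against 3.65 percent of 32851 promoters of this length. The E-box stood in 2, those of Irs2 and Irs1, against 7.15 percent of all promoters. The GC box stood in 7, against 35.7 percent of all promoters. In the windows shown, the GC content was 72 percent for Irs2, 76 percent for Igf1r, 50 percent for Akt2 and 52.3 percent for Akt1. The median of all promoters was 52.7 percent. The second listed start of Akt1, not shown, had 79.7 percent GC and 5 GC boxes. The further starts of Akt2 had 54.3, 58.7 and 50.3 percent. These matches describe the sequence of the windows alone.

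The deposited values are MAS5 signals, which the authors had scaled so that the mean of each array without the highest and lowest 2 percent of values was 500. Differences are given as log2 of high fat over control, tested with limma over 27022 probe sets, and a probe set was called at a Benjamini-Hochberg adjusted p under 0.05. Of the 31 member probe sets, 27 were bright enough to be tested. Limma called 1 of them higher in high fat mice and 0 lower. At an unadjusted p under 0.05, 8 were higher and 3 lower, where 12 percent of all tested probe sets were higher and 19 percent lower. The groups were apart for 6 in the higher and 3 in the lower direction, where this held for 14.6 and 21.7 percent of all tested probe sets. Among all tested probe sets, 4.63 percent were called higher and 8.27 percent lower, so the members' single call is near the background. With the arrays centred on their medians instead, 80.1 percent of all calls were toward higher signals, against 35.9 percent without centring, and the median difference of all tested probe sets was 0.22 instead of -0.06. The median of the 27 member differences was 0.00. The arrays' median signals were 121, 113 and 129 in high fat mice and 145, 150 and 143 in control mice. The quotient of the control probe sets at the 3' and 5' ends of Gapdh is a measure of RNA integrity. It was 0.854 to 0.957 in high fat mice and 0.743 to 0.795 in control mice. The same quotient for beta-actin was 1.50 to 1.55 in high fat mice and 1.19 to 1.44 in control mice. The part of either in the results was not tested. P-values measure the spread between these 3 mice per group.

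**Figure D1:**
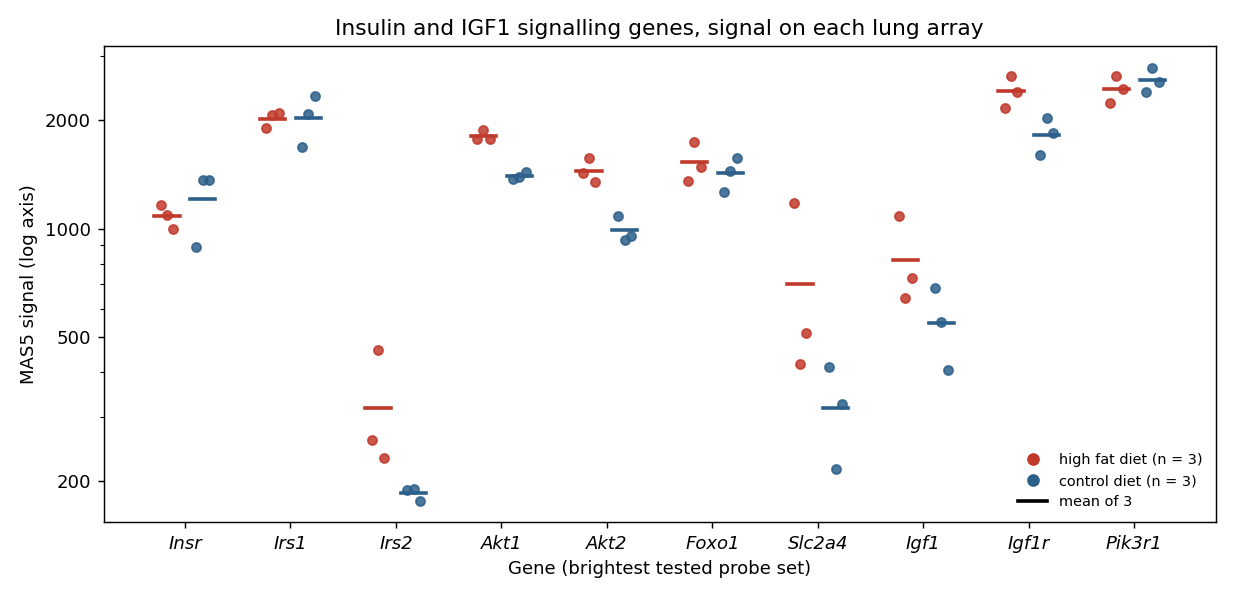
MAS5 signal (log axis) of the brightest tested probe set of each of the 10 genes, with a point for each array and a bar for the mean of 3 mice; high fat mice are red and stand left of control mice, which are blue. The groups are apart for Irs2, Akt1, Akt2, Slc2a4 and Igf1r, all higher in high fat mice, and overlap for the other 5 genes.

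By its brightest probe set, each gene gives 1 value. On that basis 5 of the 10 genes (Irs2, Akt1, Akt2, Slc2a4 and Igf1r) had higher signals in all high fat mice than in any control mouse and 0 had lower ones, whereas 19.7 percent of all 12689 genes were apart in the higher and 12.1 percent in the lower direction. The median difference of the 10 brightest probe sets was 0.38, against 0.06 for all genes. Only that of Akt2 was called, and 6.27 percent of all genes were called higher by their brightest probe set.

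The ligand gene Igf1 showed no common direction among its 4 probe sets. Its brightest, 1437401_at, had signals of 1083, 642 and 732 in high fat mice and 686, 552 and 405 in control mice. The groups overlapped, because the highest control value lay above the lowest high fat value, and the difference of 0.58 (95 percent interval 0.02 to 1.13) was not called (limma adjusted p = 0.147). It was 0.36 without high fat replicate 1 and 0.38 without control replicate 3. The other 3 probe sets had differences of -0.12, -0.39 and -0.24, with limma adjusted p of 0.336 to 0.824. Within each array, the log2 ratio of 1437401_at to 1452014_a_at was 1.88, 1.76 and 1.50 in high fat mice and 0.71, 0.78 and 0.75 in control mice. This ratio, which a single scaling factor per array cannot change, was apart between the diets by 0.97. The ratios of 1437401_at to 1434413_at and 1419519_at were also apart, by 0.70 and 0.82. Each of the 3 had an exact two-sided permutation p = 0.1, the smallest that 3 against 3 mice allows, and 0.25 after adjustment over 20 such ratios. All 3 ratios share 1437401_at and are not separate observations. Among such ratios of all genes, 27.2 percent were apart in this direction and 8.22 percent in the other. The point estimates for Igf1 varied with the probe set read, and the exact test cannot call this with 3 mice per group. Fibroblast markers summed to 68513, 82062 and 70772 in high fat mice and 65889, 62260 and 58330 in control mice. Macrophage markers summed to 20427, 27676 and 37247 in high fat mice and 34454, 31439 and 32001 in control mice. Much of this sum came from Chil3, which was not called. Of the 11 macrophage markers, C1qa, C1qb and C1qc were called higher and Cd68 and Siglecf lower. Among all genes, 6.27 percent were called higher and 3.1 percent lower. With 1 mouse left out, 1 to 3 macrophage markers were called in each direction. The part of fibroblasts and macrophages in the Igf1 values was not tested. In bulk tissue a change in cell numbers and a change in RNA per cell cannot be told apart.

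Igf1r encodes the receptor for IGF1. Its brightest probe set, 1452982_at, had signals of 2155, 2641 and 2389 in high fat mice and 1602, 2016 and 1839 in control mice. All high fat values were above all control values, with a difference of 0.40 ± 0.13 (SE), but the test did not call it (limma adjusted p = 0.0786). The probe set 1426565_at was close to it in size, with signals of 764, 795 and 762 in high fat mice and 548, 529 and 628 in control mice. Its difference was 0.45 ± 0.13 (SE) and the limma adjusted p = 0.0563. Another, 1428967_at, differed by 0.48 (limma adjusted p = 0.123), and the dim 1452108_at by 0.41 (limma adjusted p = 0.501), each with overlapping groups. In contrast, 1446303_at was lower in every high fat mouse, at 143, 178 and 177, against 190, 317 and 247 in control mice (difference -0.57, limma adjusted p = 0.153). The within-array log2 ratio of the brightest probe set to 1446303_at averaged 3.85 ± 0.09 in high fat mice and 2.88 ± 0.20 in control mice (SD, n = 3 each; exact permutation p = 0.1, adjusted 0.25). Thus 4 of the 5 probe sets of Igf1r had higher mean signals on the high fat diet and 1 had a lower one.

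Insr encodes the insulin receptor. Its bright probe set, 1434446_at, had signals of 1164, 1090 and 999 in high fat mice and 888, 1359 and 1366 in control mice. The high fat values lay within the range of the control values, and the difference was -0.13 (95 percent interval -0.53 to 0.28, limma adjusted p = 0.673). The other 2 probe sets, 1450225_at and 1421380_at, had signals between 2.67 and 64.5 on the 6 arrays and were too dim to test. The log2 ratio of the brightest probe set of Igf1r to that of Insr was 0.89, 1.28 and 1.26 in high fat mice and 0.85, 0.57 and 0.43 in control mice. These ratios did not overlap and differed by 0.52, with an exact permutation p = 0.1, the smallest possible, and 0.25 after adjustment.

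The adaptor genes Irs1 and Irs2 were each read by 1 probe set. Irs1, the main adaptor in muscle and fat, had signals of 1898, 2067 and 2081 in high fat mice and 1679, 2071 and 2327 in control mice. The groups overlapped fully and the difference was 0.00 (95 percent interval -0.31 to 0.32, limma adjusted p = 0.987). Irs2, the adaptor best known from liver and pancreatic islets, whose gene is induced by FOXO factors, had signals of 260, 461 and 232 in high fat mice and 189, 190 and 177 in control mice. All high fat values were above the control values, which were close together, and high fat replicate 2 was the highest. The difference of 0.71 ± 0.27 (SE), or 1.64-fold, was not called (limma adjusted p = 0.116), and without high fat replicate 2 it was 0.41. The log2 ratio of Irs2 to Irs1 differed by 0.71 between diets with overlapping groups (exact permutation p = 0.2, adjusted 0.364).

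Pik3r1 encodes the regulatory subunits p85 alpha, p55 alpha and p50 alpha, which bind IRS proteins and hold the catalytic subunit. Its brightest probe set, 1438682_at, had signals of 2221, 2640 and 2439 in high fat mice and 2386, 2788 and 2542 in control mice. The groups overlapped, with a difference of -0.08 (95 percent interval -0.35 to 0.19, limma adjusted p = 0.680), and 1425514_at had nearly the same mean in both groups, at 1142 ± 127 in high fat mice and 1142 ± 74.1 in control mice (SD, n = 3 each). The 2 dimmer ones had lower signals in all high fat mice. The first, 1425515_at, had 777, 792 and 803 in high fat mice and 913, 995 and 1141 in control mice (difference -0.36, limma adjusted p = 0.101). The second, 1451737_at, had 416, 352 and 478 in high fat mice and 638, 498 and 518 in control mice (difference -0.41, limma adjusted p = 0.150). The labels do not say which transcripts of Pik3r1 each probe set reads.

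**Figure D2:**
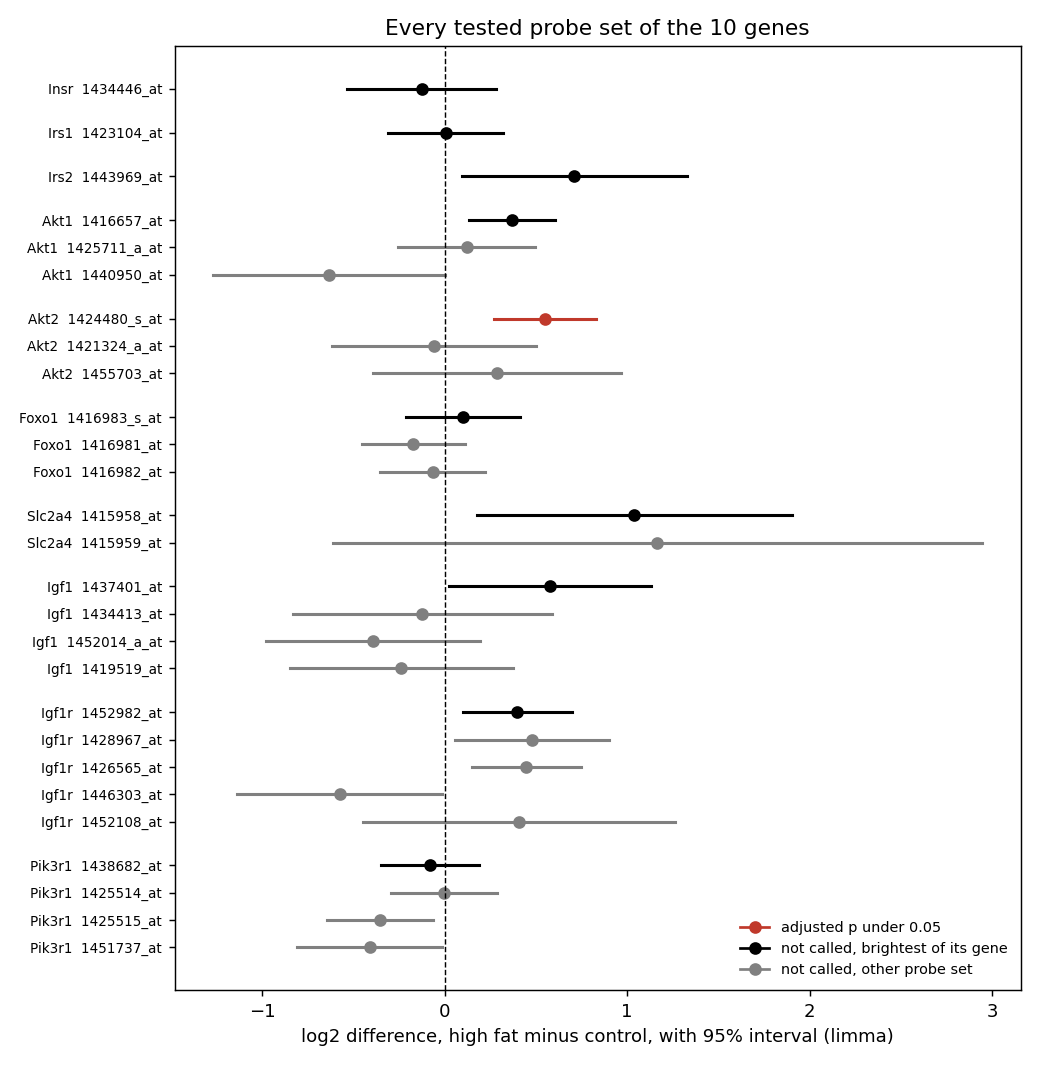
Log2 difference, high fat minus control, with its 95 percent interval from limma, for each of the 27 tested probe sets, grouped by gene with the brightest first; red marks the 1 called, black the other brightest ones and grey the rest. Point estimates of Igf1, Igf1r, Akt1, Akt2 and Foxo1 lie on both sides of 0.

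The kinase gene Akt2 held the single call. AKT2 is the isoform that carries most of the insulin response in fat, muscle and liver. Its brightest probe set, 1424480_s_at, had signals of 1425, 1571 and 1343 in high fat mice and 1082, 928 and 954 in control mice. The groups were well apart, and the signal rose by 0.55 ± 0.12 (SE), which is 1.46-fold (95 percent interval of the log2 difference 0.27 to 0.83, limma adjusted p = 0.0250). The call was lost without high fat replicate 2, control replicate 2 or control replicate 3 (limma adjusted p = 0.0713, 0.0889 and 0.0938), while the difference stayed between 0.49 and 0.62 with any 1 mouse left out. The other 2 probe sets were much dimmer and were not called: 1421324_a_at had 289, 196 and 349 in high fat mice and 285, 244 and 321 in control mice, and 1455703_at had 182, 153 and 178 in high fat mice and 191, 152 and 93.8 in control mice. Both overlapped between the diets, with differences of -0.06 and 0.29. A name ending in _s_at means that the probes can match more than 1 transcript, which for this array can include transcripts of another gene. The genes whose brightest probe sets followed that of Akt2 most closely over the 6 arrays were Prkcsh, Mal and Fam118a (Pearson r = 0.996, 0.995 and 0.995 on the log2 scale), which describes 6 points that share the diet difference.

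Akt1, the isoform best known for growth and survival signalling, lay at the threshold. Its brightest probe set, 1416657_at, had signals of 1765, 1878 and 1768 in high fat mice and 1371, 1391 and 1430 in control mice. The groups were apart by more than the spread within either, and the difference was 0.37 ± 0.10 (SE), or 1.29-fold, with a limma adjusted p = 0.050013, just above the threshold. It was called in 4 of 15 other settings. The mid-level probe set 1425711_a_at had 590, 529 and 594 in high fat mice and 560, 428 and 603 in control mice, with overlap. The dim 1440950_at went the other way, with 101, 186 and 142 in high fat mice and 185, 252 and 213 in control mice (difference -0.63, limma adjusted p = 0.162). The within-array log2 ratio of the brightest to 1440950_at was 4.13, 3.34 and 3.64 in high fat mice and 2.89, 2.46 and 2.75 in control mice (exact permutation p = 0.1, adjusted 0.25). The remaining probe set, with signals of 4.84 to 13.0, was not tested. The log2 ratio of Akt2 to Akt1 by their brightest probe sets differed by 0.18 and overlapped between the diets (exact permutation p = 0.2, adjusted 0.364). The smallest exact p possible here is 0.1, so this test could not have called a difference. Whether the call for Akt2 sets it apart from Akt1 is thus not decided.

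Over the 7 genes with several tested probe sets, 17 within-array ratios of the brightest to another probe set were formed, and 7 of them were apart between the diets, all higher in high fat mice. Among 10236 such ratios of all genes, 27.2 percent were apart in that direction and 8.22 percent in the other. The ratios were formed after the probe sets' values had been seen. Dimmer probe sets were thus often lower relative to the brightest one of their gene on the high fat arrays, for these genes and for the array as a whole.

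Foxo1, the FOXO factor that AKT keeps out of the nucleus, had 3 bright probe sets. 1416983_s_at had signals of 1357, 1734 and 1481 in high fat mice and 1262, 1438 and 1566 in control mice. 1416981_at had 1276, 1344 and 1471 in high fat mice and 1576, 1366 and 1676 in control mice, and 1416982_at had 955, 1021 and 1168 in high fat mice and 1030, 1081 and 1170 in control mice. The groups overlapped for all 3, and their differences were 0.10, -0.17 and -0.06, with limma adjusted p of 0.379 to 0.767. The farthest ends of their 95 percent intervals were -0.46 for 1416981_at and 0.41 for 1416983_s_at. With the deposited scaling, a difference of 0.50 in either direction thus lies outside all 3 intervals. With median centring, 1416983_s_at was at 0.37, so this limit depends on the scaling. The dim probe set 1456529_at had 32.1, 15.3 and 45.0 in high fat mice and 6.88, 11.2 and 6.33 in control mice, below the level of testing.

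Slc2a4, which encodes the insulin-responsive glucose transporter GLUT4 of fat and muscle, had the largest difference among the 10 brightest probe sets. Its brighter probe set, 1415958_at, had signals of 1174, 421 and 515 in high fat mice and 414, 217 and 328 in control mice. The high fat values were all above the control values, but high fat replicate 2 exceeded control replicate 1 by little, and high fat replicate 1 stood far above the others. The difference of 1.04 ± 0.38 (SE), or 2.05-fold, was not called (limma adjusted p = 0.105), and it was 0.59 (limma adjusted p = 0.211) without high fat replicate 1. Without the arrays of replicate 1 of both diets, a setting chosen after seeing the data, it was 0.80. The dimmer probe set 1415959_at had 552, 153 and 186 in high fat mice and 226, 29.1 and 211 in control mice, with overlap (difference 1.17, limma adjusted p = 0.345), and its difference was 0.20 without control replicate 2 and 0.60 without high fat replicate 1.

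Markers of fat and muscle varied on the same arrays. The 11 adipocyte markers summed to signals of 57639, 40254 and 43771 in high fat mice and 16844, 7346 and 15282 in control mice, and 8 of the 10 tested were called higher, where 6.27 percent of all genes were. This count was 4 without high fat replicate 1, high fat replicate 3 or control replicate 2, and 5 without high fat replicate 2. The 12 cardiac muscle markers summed to 165860, 45401 and 67774 in high fat mice and 35832, 21889 and 48570 in control mice. The 13 skeletal muscle markers summed to 26678, 1646 and 2621 in high fat mice and 85624, 854 and 4966 in control mice. The 8 smooth muscle markers summed to 60963, 31669 and 42896 in high fat mice and 26086, 20625 and 24390 in control mice. Of these 8, 5 were called higher, and with 1 mouse left out that count ran from 0 to 6. None of the marker signals was listed at 0. Within each diet, the order of the 3 mice by Slc2a4 was that of their adipocyte, skeletal muscle and smooth muscle sums. Within the high fat mice it was that of their cardiac sums too. The part of these tissues in the Slc2a4 signal was not tested. Adipocyte and smooth muscle markers also moved with the diet difference of Akt2. The control mice had the same order by Akt2 as by either of these sums. Among the high fat mice, replicate 2 was the lowest by either sum and the highest by Akt2. The markers' part in the Akt2 signal was not tested.

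**Figure D3:**
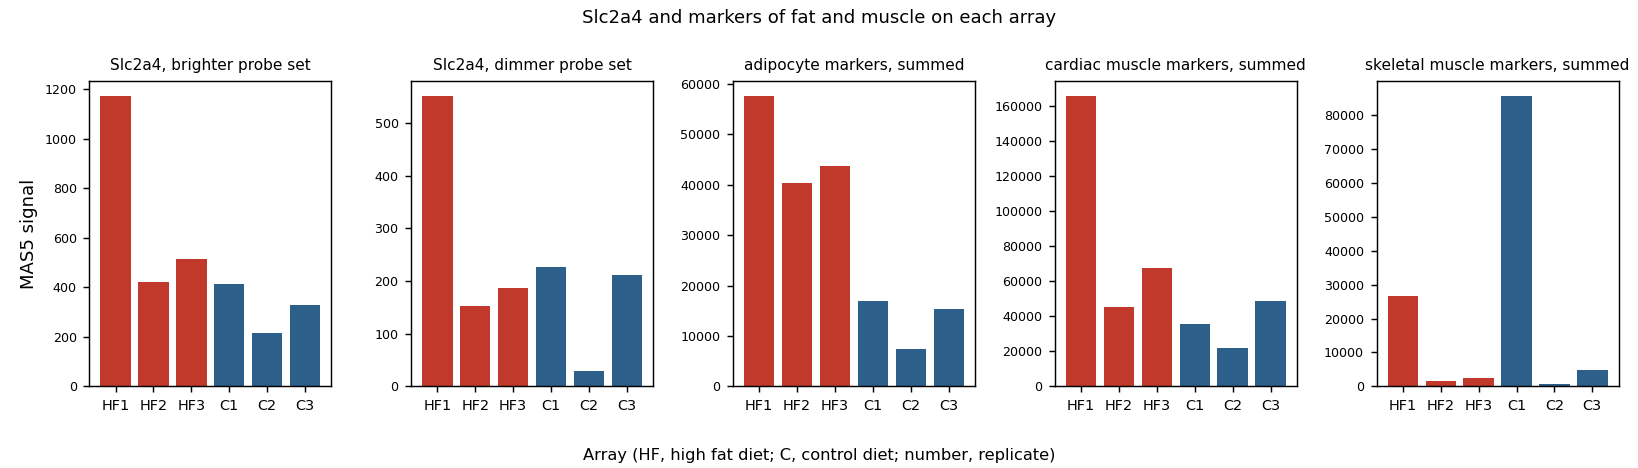
MAS5 signal on each array of both Slc2a4 probe sets and of the summed markers of adipocytes, cardiac muscle and skeletal muscle, with each panel on its own axis from 0; HF is high fat diet, C is control diet and the number is the replicate. High fat replicate 1 is the highest in the first 4 panels and control replicate 1 in the skeletal muscle panel.

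Of 55 other genes of the insulin and IGF pathway, 44 were named alone by a probe set and 39 were tested. By their brightest probe sets, limma called 2 as higher on the high fat diet and 0 as lower, where 6.27 percent of all genes were called higher and 3.1 percent lower. At an unadjusted p under 0.05, 9 were higher and 1 lower, where 16.2 percent of all genes were higher and 9.29 percent lower. Their median difference was 0.12, against 0.06 for all genes. Igf2r, the mannose 6-phosphate receptor that clears IGF2, had signals of 1797, 1770 and 1363 in high fat mice and 930, 1045 and 1188 in control mice, without overlap. It rose 1.55-fold (limma adjusted p = 0.0301), and its dimmer probe set differed by 0.47 (limma adjusted p = 0.0576). Grb14, an adaptor that binds the active insulin receptor and inhibits it, had 2390, 2080 and 2194 in high fat mice and 1653, 1012 and 1568 in control mice. It rose 1.61-fold (limma adjusted p = 0.0437), without overlap. With 1 mouse left out, Igf2r was called only without high fat replicate 3 and Grb14 only without control replicate 1, and the limma adjusted p reached 0.0927 for Igf2r without control replicate 2 and 0.0983 for Grb14 without high fat replicate 1.

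Further pathway genes came near the threshold and are named after their values were seen. Rptor, a subunit of the mTORC1 kinase complex, had 719, 718 and 593 in high fat mice and 526, 425 and 440 in control mice (limma adjusted p = 0.0508). Pde3b, the phosphodiesterase through which insulin restrains lipolysis, had 1089, 761 and 1148 in high fat mice and 700, 643 and 672 in control mice (limma adjusted p = 0.0664). Pik3r2 had 530, 547 and 615 in high fat mice and 433, 442 and 338 in control mice (limma adjusted p = 0.0829). Gab1, a docking protein of receptor tyrosine kinases, was the only tested gene of the list with lower signals in all high fat mice, at 1705, 1882 and 2277, against 2581, 2334 and 2835 in control mice (limma adjusted p = 0.0859). Among the tested genes, 10 had higher signals in all high fat mice than in any control mouse, against 19.7 percent of all genes.

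**Figure D4:**
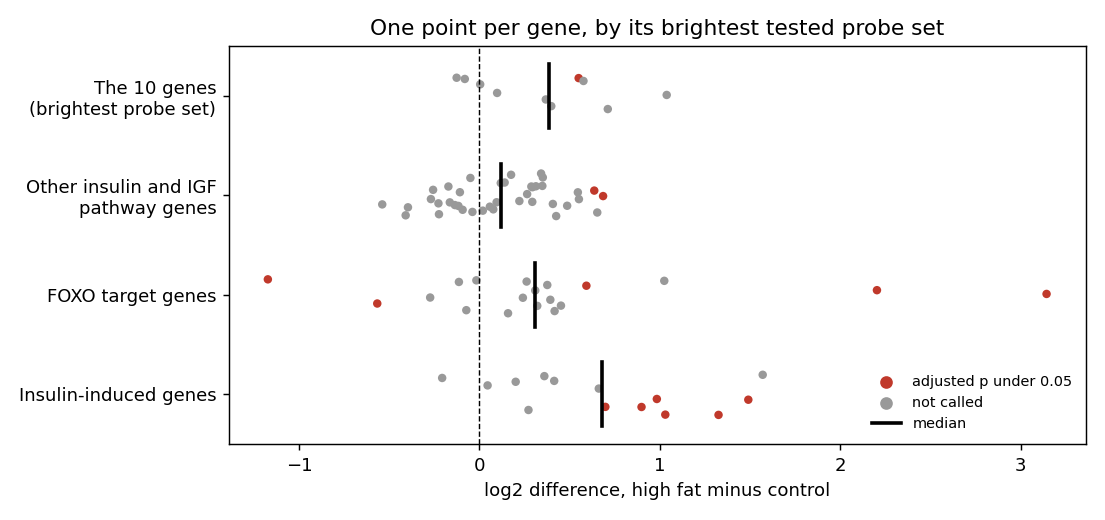
Log2 difference, high fat minus control, of the brightest tested probe set of each gene, in the 10 core genes and in the lists of other pathway genes, FOXO targets and insulin-induced genes; red points were called and the black bar is the median of each list. Medians were 0.38, 0.12, 0.31 and 0.68 from top to bottom.

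Genes known to respond to the pathway were read beside it. Of 22 genes known as FOXO targets, 19 were tested, and 3 were called higher and 2 lower (median 0.31), where 6.27 percent of all genes were called higher and 3.1 percent lower. With 1 mouse left out, 2 or 3 were called higher and 1 or 2 lower, and the count of lower calls was 2 only without high fat replicate 3. Pdk4 and Pck1, which FOXO1 induces in fasting liver, had differences of 2.20 and 3.14 and were both called (limma adjusted p = 0.00622 and 0.00696), while the dimmer probe set of Pck1 differed by 1.60 and was not called (limma adjusted p = 0.0511). Adipocytes express both genes, and their markers were higher on the high fat arrays as given above. Liver markers summed to 3347, 2524 and 2599 in high fat mice and 869, 1258 and 1829 in control mice. Most of this sum came from Cyp2e1, which overlapped between the diets and was not called. The other of the 2 tested, Alb, had 387, 795 and 175 in high fat mice and 34.2, 86.6 and 80.2 in control mice. Alb was called higher, but with 1 mouse left out a liver marker was called only without high fat replicate 1 or high fat replicate 3. The part of fat or liver in Pdk4 and Pck1 was not tested. Sesn3, a stress-induced sestrin, had 1322, 1304 and 1520 in high fat mice and 770, 1089 and 911 in control mice. It rose 1.51-fold (limma adjusted p = 0.0372), without overlap, but was called in 0 of the 6 fits with 1 mouse left out. Its other probe set, nearly as bright, overlapped between the diets and was not called (difference 0.37, limma adjusted p = 0.209). The genes called lower were S1pr1, a receptor that guides lymphocytes and stabilises vessels, and Il7r, the interleukin 7 receptor of lymphocytes. S1pr1 had 1551, 1405 and 1149 in high fat mice and 3042, 2393 and 3933 in control mice, 0.444 times the control level and far from overlap (limma adjusted p = 0.00938). Il7r had a difference of -0.57 (limma adjusted p = 0.0349), but with 1 mouse left out it was called only without high fat replicate 3, and its other probe set was not called (limma adjusted p = 0.0736). Lymphocyte markers, a list that also holds Il7r, summed to 3491, 2750 and 4631 in high fat mice and 6379, 8092 and 5672 in control mice, and endothelial markers to 32400, 33294 and 41400 in high fat mice and 38595, 47202 and 46792 in control mice. Of the 10 lymphocyte markers tested, 4 were called lower, Il7r among them, and of the 8 endothelial markers 2 were. None of either list was called higher. With 1 mouse left out, the counts called lower ran from 1 to 7 and from 1 to 4. The part of lymphocytes and endothelium in S1pr1 and Il7r was not tested.

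Of 15 genes induced by insulin in liver or fat, 14 were tested, and 6 were called higher and 0 lower (median 0.68). Among all genes, 6.27 percent were called higher and 3.1 percent lower. At an unadjusted p under 0.05, 9 were higher and 0 lower, where 16.2 percent of all genes were higher and 9.29 percent lower. The count of genes called higher was 4 without control replicate 2. Srebf1, the gene of SREBP1, through which insulin raises lipid synthesis, had 2728, 2333 and 2945 in high fat mice and 1717, 1618 and 1581 in control mice. All high fat values were above all control values, and it rose 1.62-fold (limma adjusted p = 0.0116). The call was lost without control replicate 2 or control replicate 3 (limma adjusted p up to 0.0573). Me1, the cytosolic malic enzyme that supplies NADPH, had 2612, 2988 and 3024 in high fat mice and 1659, 839 and 1078 in control mice, a rise of 2.51-fold without overlap (limma adjusted p = 0.0104). Its other tested probe set differed by 0.46 and was not called (limma adjusted p = 0.315). Scd1, Pnpla3 and Acacb, enzymes of lipid synthesis and turnover, were also called, with differences of 1.03, 1.49 and 0.98. Adipocytes express several of these genes, adipocyte markers were higher on the same high fat arrays, and their part in the list was not tested.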

How the data were processed

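Lung RNA of 6 wild type mice was labelled with biotin and hybridised to Affymetrix arrays, per the labels' protocols. The deposited intensity values are MAS5 signals, per the submitters' processing notes. MAS5 corrects each probe by its mismatch partner, so dim probe sets are noisy. Neither its version and settings nor dates or batches are stated. The values were floored at 1 and turned to log2. Probe sets were tested if their mean log2 signal reached the 40th percentile (6.14, a signal of 70.3), with limma 3.58.1 in R 4.3.3, eBayes with an intensity trend and diet as the single term, which leaves 4 residual degrees of freedom. P-values were adjusted by Benjamini-Hochberg over all 27022 tested probe sets. The brightest probe set of a gene is the one of highest mean log2 signal among those naming that gene alone. Permutation tests enumerated 20 relabelings (scipy 1.17.1). Gene symbols came from the platform annotation, and 34754 probe sets matched a RefSeq table of GRCm38.p6. The fit was tested on simulated data with 200 changed probe sets. It recovered 36 percent of changes of log2 size 1 and 73 percent of size 2, with 3 false calls in each case. In the data, 12.9 percent of the tested probe sets were called, a far larger share than was changed in the simulation. The adjusted threshold is less strict when more probe sets change, so these recovery rates do not carry over to the data. A missing call does not show that a gene is unchanged. Means and SDs are of linear signals unless stated as log2.

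The members, gene lists and tests were chosen with earlier results of these data known. All members are named. Other genes are named if called, up to 12 of smallest p in the pathway list and 5 in each of the FOXO and insulin-induced lists. Exceptions are stated where they occur. Alternatives were other scalings, offsets, filters, variance models and weights, the replicate number as a block, and each mouse left out.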

Additional observations from a re-analysis of the deposited data

How the results depend on the processing

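The 3 mice per group and noisy dim probe sets limit precision, and of 14 called genes of the core and the 3 lists, 7 kept their call whichever mouse was omitted. The call of the single member probe set, and of its gene, became 0 with eBayes without trend (Akt2, limma adjusted p = 0.0568) and without the arrays of replicate 1 of both diets (0.0631). Called member probe sets numbered 2 with 32 added before log2, array weights or the replicate block, 3 with a filter at the 60th percentile and 8 with median centring, and called member genes numbered 2, 2, 2, 2 and 6. With 1 mouse left out, member probe sets and member genes called higher ran from 0 to 1 and those called lower were 0. Other pathway genes called higher were 1 with no filter, with the replicate block or with adjustment over 1 probe set per gene, 0 with eBayes without trend and without replicate 1 of both diets, and 16 with median centring, and ran from 0 to 2 with 1 mouse left out, while those called lower ran from 0 to 1. The cause was not tested, except that median centring raises all high fat values. With it, 8 FOXO targets and 11 insulin-induced genes were called higher, against 3 and 6. It called 16.1 percent of all tested probe sets higher, against 4.63 percent.

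No member called in the main test changed sign. Uncalled probe sets near 0 did. With quantile normalization Irs1 was at -0.033 and Akt2 1421324_a_at at 0.11. With median centring Insr 1434446_at was at 0.15, Akt2 1421324_a_at at 0.22, Foxo1 1416981_at and 1416982_at at 0.10 and 0.21, Igf1 1434413_at and 1419519_at at 0.15 and 0.036, and Pik3r1 1438682_at and 1425514_at at 0.19 and 0.27. With array weights Irs1 was at -0.019 and Pik3r1 1425514_at at 0.0049. Without replicate 1 of both diets these were -0.082 and 0.078. With 1 mouse left out, the differences ran from -0.12 to 0.11 for Irs1, -0.093 to 0.043 for Pik3r1 1425514_at, -0.24 to 0.18 for Akt2 1421324_a_at, -0.00099 to 0.51 for Akt2 1455703_at, -0.46 to 0.19 for Igf1 1434413_at, -0.47 to 0.0031 for Igf1 1419519_at and -0.027 to 0.22 for Akt1 1425711_a_at.

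The deviations of same-numbered mice from their group means correlated at 0.17, 0.11 and -0.04 over probe sets, and high fat replicate 3 correlated best with control replicate 2, so the numbers were not taken to pair the mice. With the replicate block, Slc2a4 1415958_at was also called (1.04, limma adjusted p = 0.0269).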
